A study of Homo sapiens with 10 samples.

Results

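The genes of cholesterol and fatty acid synthesis were examined in glioma cells in which the homeobox transcription factor MEOX2 had been silenced or overexpressed. The set was chosen by gene symbol and holds 37 genes: 7 enzymes that run from acetyl-CoA to farnesyl diphosphate, 11 that run from squalene synthesis to cholesterol, 5 regulators of the SREBP transcription factors, 2 sterol carriers, 7 enzymes of fatty acid synthesis and desaturation, and 5 genes of the LXR receptors and sterol efflux. All 37 were found among the 34567 genes of the deposited count table, and 36 of them passed the filter on low counts in every comparison. ABCG1, a sterol exporter, did not pass, with values between 0 and 0.577 CPM (counts scaled to a common library total) in the 10 libraries.

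RNA sequencing (RNA-seq) of poly-A mRNA was done in human glioma cell lines grown in medium with 10% fetal bovine serum. SNB19 cells received a scramble siRNA (NC, n = 3) or an siRNA against MEOX2 (siMEOX2, n = 3) with a lipid reagent. U87 cells were infected with an empty lentiviral vector (EV, n = 2) or a MEOX2 lentivirus (OE, n = 2) and selected with puromycin as stable cells. Which of the study's siRNAs was used, and whether replicates were separate cultures, is not given in the sources used here, so p-values measure the spread between these libraries, which may be technical. The libraries held 12533775 to 16560324 counts each, and values below are CPM after scaling by trimmed mean of M-values (TMM) unless stated otherwise.

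MEOX2 itself matched the labels. It had 249, 224 and 275 counts in the NC libraries and 54, 40 and 49 in the siMEOX2 libraries, a 5.31-fold lower level (log2 fold change -2.41 ± 0.14 SE, adjusted p = 1.35e-11, edgeR quasi-likelihood test). In U87 it had 0 counts in both EV libraries and 4999 and 5308 in the OE libraries, which is at least 1429-fold higher in TMM-scaled CPM (382 CPM in the lower OE library against a floor of 3 counts per library, 0.267 CPM). In the overexpression test MEOX2 had an adjusted p of 0.123, although its groups did not overlap.

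EV replicate 1 stood apart from the other libraries. Its TMM factor was 0.695, against 0.950 to 1.13 in the other 9. Its 50 most abundant genes took 19.4% of the counts, against 12.0 to 14.0% elsewhere. The median gene length over its counts was 3947 bp, against 5178 to 5340 bp. Across 17312 genes its log2 CPM correlated with EV replicate 2 at r = 0.944, while the OE libraries correlated with each other at r = 0.989. EV replicate 2 correlated more closely with the OE libraries, at r = 0.964 and 0.963, than with EV replicate 1. The 36 members differed between the EV libraries by a median of 0.79 on the log2 scale, between the OE libraries by 0.12 and between NC replicates 1 and 2 by 0.071. Of the 13 members that differed by more than 1 between the EV libraries, 7 were higher in replicate 1 and 6 in replicate 2. Counts of called members that rest on EV are therefore given with and without each of these libraries. The overexpression fold changes that turned in sign and the called members that moved by over 1.5 times are given likewise. In the baseline comparison and in the difference of effects 8 members each also turned in sign. None of these was called in the main fits, and values are given for only some of them.

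Vimentin (VIM) and CD44, which mark mesenchymal glioma cells, were present in all libraries. The astrocyte marker GFAP did not exceed 4.57 CPM and S100B did not exceed 0.303 CPM in any library. SOX2, a neural stem cell factor, lay between 11.5 and 34.5 CPM in SNB19 and between 0 and 0.248 CPM in U87. The immune markers PTPRC, CD14 and CD68 summed to at most 1.94 CPM in any library, and the hepatocyte markers ALB, APOA1 and TTR to at most 0.463 CPM. In these bulk libraries a lower level per cell and fewer expressing cells cannot be told apart.

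Cells make cholesterol from acetyl-CoA through mevalonate, farnesyl diphosphate and squalene, and make fatty acids by carboxylating acetyl-CoA and extending the chain. Most of these enzymes are transcribed under the SREBP factors, which SCAP carries from the endoplasmic reticulum to the Golgi for cleavage when sterols are low, while the INSIG proteins hold SCAP back when sterols are high. When oxysterols accumulate, the LXR receptors turn on sterol export, mainly through ABCA1 and ABCG1. Glioma cells are known for a high demand for cholesterol and for lipogenesis driven by SREBF1.

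Promoter sequence was read from RefSeq for the bases upstream of each start, because the enzymes share regulators. In the set of windows used here 32 of the 37 members had an entry, with 45 start windows of 250 upstream bases (GRCh38.p14). ACAT2, FDFT1, SQLE, FASN and ABCG1 were not among them. The letters searched on both strands were CCAAT (the NF-Y box), CACGTG (the E-box), TCACNCCAC (an SREBP motif), TAATTA (a homeobox core) and, for LXR, 2 copies of AGGTCA on 1 strand separated by any 4 bases. CCAAT was present in 21 of the 32 genes (65.6%), against 37% of all 27305 genes with a window. CACGTG was present in 4 members (12.5%, against 7.73%), TCACNCCAC in SREBF2 alone (3.12%, against 1.09%) and TAATTA in FDPS alone (3.12%, against 5.37%). No member window held the LXR letters, which 0.0183% of all genes held. No match overlapped a match of another motif. A match is a description of letters and not evidence of binding.

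The 30-base stretches below carry these letters in members that the results turn on. Capitals mark a match, which reads ATTGG where CCAAT lies on the other strand, and each sequence is written 5′ to 3′ on the strand of its gene. HMGCS1 (chr5:43313495-43313524, minus strand), MVK (chr12:109573703-109573732, plus), MSMO1 (chr4:165327581-165327610, plus), DHCR7 (chr11:71448470-71448499, minus) and EBP (chrX:48521726-48521755, plus) are shown for CCAAT. FDPS (chr1:155308810-155308839, plus) holds both CCAAT and TAATTA. SREBF2 (chr22:41832962-41832991, plus) holds the SREBP motif, and SCAP (chr3:47475982-47476011, minus), INSIG1 (chr7:155297811-155297840, plus) and ABCA1 (chr9:104928285-104928314, minus) hold the E-box.
HMGCS1: ctaccggccgcgATTGGctgtgggagccac
MVK: atgttcaagcctATTGGtaaaggtactccg
MSMO1: caactgcacagaCCAATcaccgcgccgaga
DHCR7: caggctcctcgaCCAATcacggggcgcgga
EBP: aagagagtgtctATTGGttgggagcggcac
FDPS: ggcacATTGGgagttgtagtcTAATTAtat
SREBF2: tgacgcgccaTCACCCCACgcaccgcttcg
SCAP: cgccgctgggcgCACGTGcggagggcggcg
INSIG1: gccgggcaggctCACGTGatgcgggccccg
ABCA1: gggccccggctcCACGTGctttctgctgag
In GENCODE release 29, alternative transcripts of the gene itself cover the windows of EBP, FDPS, SCAP and INSIG1 and 18 of the 30 bases of HMGCS1. The MVK window lies in an exon of the divergent gene MMAB and the SREBF2 window in an exon of SREBF2-AS1, while the windows of MSMO1, DHCR7 and ABCA1 lie in no exon.

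**Figure D1:**
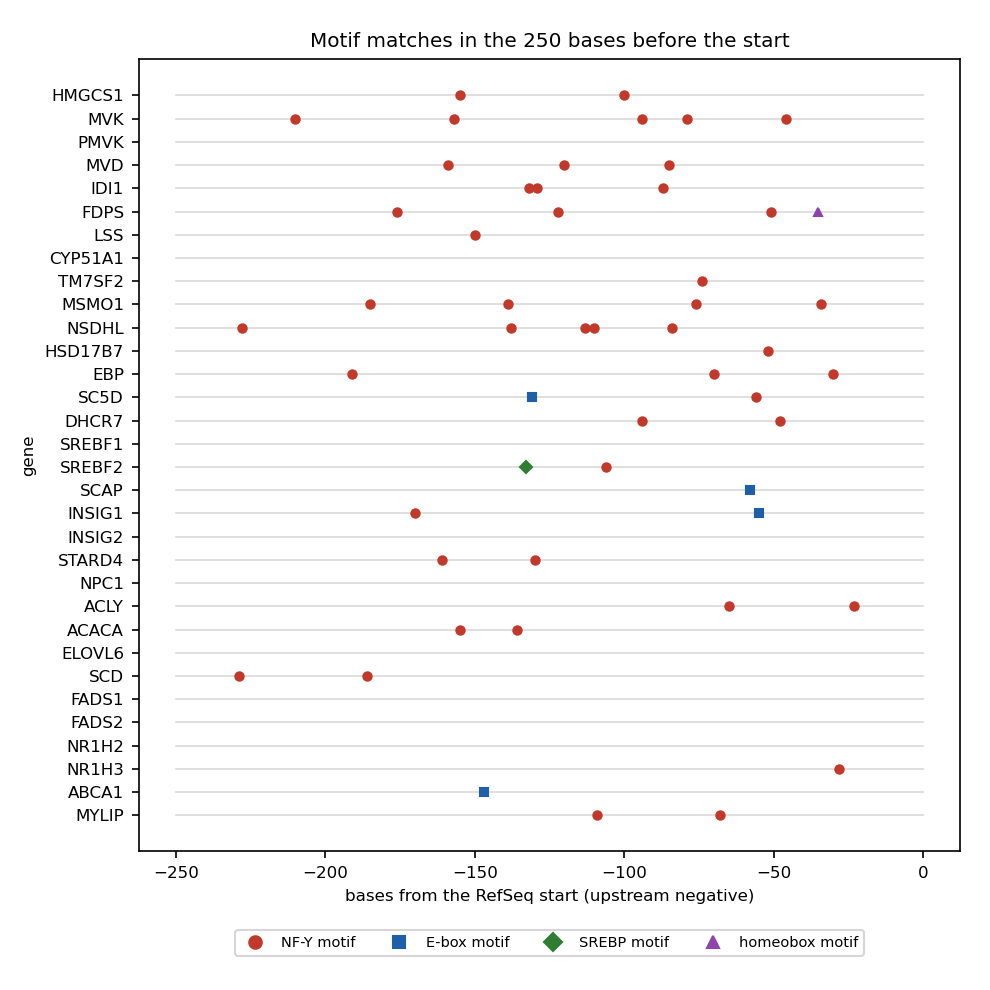
Positions of motif matches, 1 row per member, in the 250 bases upstream of the RefSeq start (x axis, bases from the start). For genes with several starts the window with the most CCAAT matches is drawn, so a match in another window is not shown. Red points (CCAAT) fall in most sterol enzymes, while FDPS alone has the homeobox core and SREBF2 alone the SREBP motif.

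The first question was how the pathway answered to loss of MEOX2 in SNB19. On knockdown 10 of the 18 enzymes of cholesterol synthesis rose and 1 fell (of all genes tested, 27.4% rose and 28.5% fell), of which HMGCS1 and FDPS were also called in a fit of all 10 libraries. In addition the desaturases FADS1 and FADS2 and the sterol exporter ABCA1 fell, of which FADS2 alone was called in that fit. The 18 enzymes of cholesterol synthesis summed to 1352, 1366 and 1357 CPM in the NC libraries and to 1705, 1682 and 1636 CPM in the siMEOX2 libraries, a ratio of means of 1.23. The 7 mevalonate enzymes had the highest such ratio of the lists (1.43), and the genes of LXR and efflux the lowest (0.729). For the fatty acid genes the ratio was 0.991, with members moving both ways.

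By the edgeR test over 15525 genes, 16 of the 36 tested members were higher and 7 lower at an adjusted p under 0.05, and 13 were not called. Of all genes tested, 27.4% were called higher and 28.5% lower. The median log2 fold change of the members was 0.13, against 0.0063 over all genes. When all 10 libraries shared 1 estimate of the spread, FDPS, HMGCS1, INSIG1 and INSIG2 were called higher and FADS2 lower (background 6.99% higher and 8.75% lower), so most calls rest on the spread within SNB19. Leaving out 1 SNB19 library at a time gave 14 to 18 higher and 7 to 9 lower, and the share of all genes called in those fits is not given here. In the accounts of single genes below, the values in parentheses are the log2 fold change with its standard error (SE) and the edgeR adjusted p.

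Of the 7 mevalonate enzymes 5 rose and none fell, where 27.4% of all genes rose and 28.5% fell. HMGCS1 (chr5:43289395-43313512, GRCh38), the HMG-CoA synthase that starts the branch to mevalonate, was at 65.9, 62.8 and 64.5 CPM in NC and 121, 154 and 139 CPM in siMEOX2 (log2 fold change 1.12 ± 0.073 SE, adjusted p = 6.26e-11). It had the largest change of any member. All siMEOX2 libraries lay above all NC libraries, and the rise was 2.17-fold. MVK, mevalonate kinase, went from 29.1, 32.3 and 30.1 to 57.5, 51.2 and 47.9 CPM (0.79 ± 0.077 SE, adjusted p = 2.72e-08). FDPS, which makes farnesyl diphosphate for sterols and for protein prenylation, went from 77.5, 86.1 and 81.4 to 125, 128 and 133 CPM (0.67 ± 0.058 SE, adjusted p = 4.62e-09). Neither gene had overlapping groups. MVD, the decarboxylase that forms isopentenyl diphosphate, went from 46.3, 49.0 and 43.4 to 62.2, 54.6 and 54.1 CPM (0.32 ± 0.071 SE, adjusted p = 0.000752), and IDI1, its isomerase, changed by 0.18 ± 0.068 SE, adjusted p = 0.0272. The thiolase ACAT2 (0.15 ± 0.065 SE, adjusted p = 0.0554) and the kinase PMVK (0.13 ± 0.065 SE, adjusted p = 0.109) were not called. MVK shares exon sequence with MMAB on the opposite strand, and the library kit does not mark strand, so reads from the pair cannot be told apart. FDPS has near-identical copies elsewhere in the genome, and its value is uncertain for that reason.

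Among the 11 enzymes from squalene synthesis to cholesterol, 5 rose, 1 fell and 5 were not called, against 27.4% higher and 28.5% lower over all genes. SQLE, squalene epoxidase and a rate-limiting step, was at 109.8, 104 and 108 CPM in NC and 148, 148 and 145 CPM in siMEOX2 (0.47 ± 0.051 SE, adjusted p = 1.32e-07). DHCR7, which reduces the last double bond on the way to cholesterol, went from 125, 132 and 139.5 to 175, 167 and 166 CPM (0.37 ± 0.054 SE, adjusted p = 7.91e-06). MSMO1, a methylsterol oxidase, went from 111, 106 and 122 to 139, 143 and 143 CPM (0.34 ± 0.057 SE, adjusted p = 3.56e-05). None of these 3 had overlapping groups. The rises of squalene synthase FDFT1 (0.17 ± 0.049 SE, adjusted p = 0.00523) and lanosterol synthase LSS (0.14 ± 0.053 SE, adjusted p = 0.0272) were smaller. TM7SF2, a sterol reductase, was the member that fell, from 25.3, 27.7 and 24.6 to 21.9, 19.2 and 16.8 CPM (-0.41 ± 0.096 SE, adjusted p = 0.00125). Its gene shares exon sequence with VPS51 on the same strand. CYP51A1, NSDHL, HSD17B7, EBP and SC5D had log2 fold changes of 0.44, -0.035, 0.050, 0.11 and -0.17 and did not pass.

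The SREBP factors themselves were not called, while both INSIG genes rose. SREBF1, the SREBP gene tied to lipogenesis, was at 682, 699.6 and 624 CPM in NC and 661, 593 and 589.7 CPM in siMEOX2 (-0.11 ± 0.052 SE, adjusted p = 0.0872). SREBF2, tied to sterol synthesis, was at 318, 316 and 323 CPM in NC and 317, 331 and 318 CPM in siMEOX2 (0.027 ± 0.047 SE, adjusted p = 0.644). SCAP, their escort, was at 139, 133 and 134 CPM in NC and 134, 130.1 and 122 CPM in siMEOX2 (-0.058 ± 0.053 SE, adjusted p = 0.364). The groups of these 3 genes overlapped. INSIG1, a retention protein that is itself an SREBP target, went from 76.8, 78.0 and 74.2 to 103, 98.1 and 92.3 CPM (0.37 ± 0.058 SE, adjusted p = 1.49e-05). INSIG2, its paralog, went from 14.7, 14.3 and 15.5 to 19.8, 20.7 and 24.7 CPM (0.56 ± 0.10 SE, adjusted p = 8.70e-05). All siMEOX2 libraries exceeded all NC libraries for both. Both sterol carriers also rose. NPC1, which exports cholesterol from lysosomes, went from 61.6, 53.5 and 52.9 to 63.8, 76.5 and 82.9 CPM (0.42 ± 0.084 SE, adjusted p = 0.000231), and STARD4, a cytosolic carrier, changed by 0.25 ± 0.062 SE, adjusted p = 0.00203.

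The fatty acid genes split. The desaturases FADS2 and FADS1, the elongase ELOVL6 and citrate lyase ACLY fell, the synthase FASN and the carboxylase ACACA rose, and the stearoyl-CoA desaturase SCD was not called. FADS2 (chr11:61792980-61867354) was at 241, 257 and 239 CPM in NC and 129.7, 109.9 and 104 CPM in siMEOX2 (-1.09 ± 0.065 SE, adjusted p = 1.67e-11), 2.13-fold lower. It was the member that fell the most. ACLY, which makes cytosolic acetyl-CoA, went from 633, 625 and 617 to 503, 510.3 and 497 CPM (-0.30 ± 0.044 SE, adjusted p = 7.55e-06). ELOVL6 went from 82.3, 82.0 and 76.3 to 59.9, 64.1 and 65.5 CPM (-0.33 ± 0.062 SE, adjusted p = 0.000121), and FADS1 changed by -0.28 ± 0.046 SE, adjusted p = 3.78e-05. The groups of these 4 genes did not overlap. FASN was at 1544, 1534 and 1432 CPM in NC and 1729.5, 1747 and 1685 CPM in siMEOX2 (0.21 ± 0.044 SE, adjusted p = 0.000427). ACACA changed by 0.16 ± 0.056 SE, adjusted p = 0.0207, with overlapping groups. SCD, at 1352, 1285 and 1335 CPM in NC and 1326, 1378 and 1432 CPM in siMEOX2, had a log2 fold change of 0.072 ± 0.046 SE, adjusted p = 0.186. FADS1 and FADS2 share exon sequence on opposite strands, so part of their reads cannot be told apart.

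On the efflux side, ABCA1 and NR1H2 fell and none rose, where 28.5% of all genes fell and 27.4% rose. Neither was called in the fit of all 10 libraries. ABCA1 (chr9:104781002-104928237), which loads cellular cholesterol onto apolipoproteins, was at 69.5, 70.8 and 76.3 CPM in NC and 32.9, 45.5 and 43.9 CPM in siMEOX2 (-0.81 ± 0.091 SE, adjusted p = 2.12e-07). The highest siMEOX2 library lay well below the lowest NC library. NR1H2, the LXR gene expressed in most tissues, changed by -0.24 ± 0.067 SE, adjusted p = 0.00477. NR1H3, the other LXR gene, was at 10.3, 14.0 and 11.7 CPM in NC and 10.7, 9.61 and 8.45 CPM in siMEOX2 with overlapping groups (-0.30 ± 0.13 SE, adjusted p = 0.0539). MYLIP, a ubiquitin ligase for lipoprotein receptors and an LXR target, had -0.15 ± 0.13 SE, adjusted p = 0.326.

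Marker genes also moved with the knockdown. The glioma line list (VIM, NES, CD44, SOX2, GFAP, S100B, OLIG2, NCAM1) summed to 1161, 1152 and 1154 CPM in NC and to 573, 539 and 540.2 CPM in siMEOX2, with VIM as its most abundant gene. VIM, NES, CD44, SOX2 and GFAP fell, NCAM1 was not called, and OLIG2 rose (0.50 ± 0.17 SE, adjusted p = 0.0186). The endothelial list (PECAM1, CDH5, VWF, KDR), led by PECAM1, summed to 43.5, 39.7 and 43.5 CPM in NC and 11.5, 9.86 and 10.1 CPM in siMEOX2. The epithelial list (EPCAM, KRT5, KRT18, CDH1) was led by KRT18 and summed to 90.8, 89.5 and 83.0 CPM in NC against 86.9, 75.3 and 77.2 CPM. Within that list CDH1 went the other way, from 1.39, 0.831 and 0.910 CPM in NC to 3.88, 3.88 and 4.01 CPM in siMEOX2 (1.90 ± 0.25 SE, adjusted p = 1.77e-06). The neuron and oligodendrocyte markers RBFOX3, SYT1, MBP and MOG were led by SYT1 and summed to 6.19 to 6.75 CPM in NC and 8.01 to 8.45 CPM in siMEOX2. Of the tested genes of that list SYT1 rose (0.61 ± 0.15 SE, adjusted p = 0.00146) and RBFOX3 fell (-1.32 ± 0.35 SE, adjusted p = 0.00325). The part of these shifts in the lipid results was not tested.

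**Figure D2:**
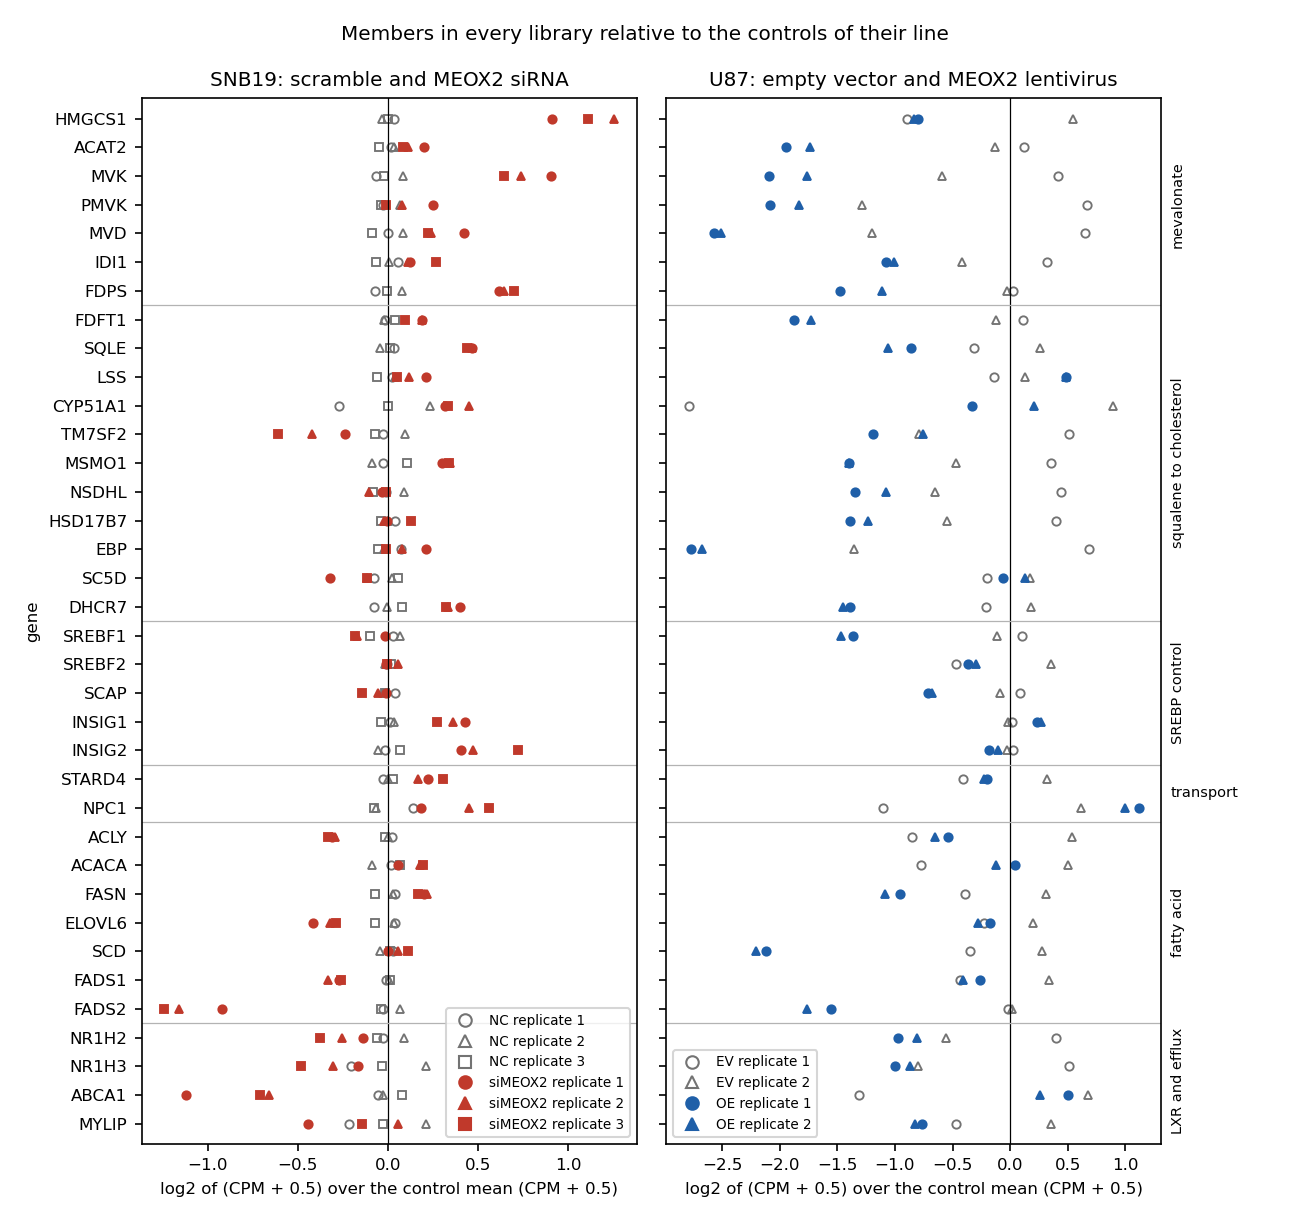
Each row is a member and each point a library, placed at the log2 of its CPM (plus 0.5) over the mean of its line's controls (plus 0.5), with SNB19 on the left and U87 on the right; open symbols are controls and filled symbols the perturbed cells. In SNB19 HMGCS1, MVK and FDPS lie to the right of the tight NC points and FADS2 and ABCA1 to the left, while in U87 the EV libraries are far apart and most OE points lie to the left.

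The second question was how the same genes stood when MEOX2 was added to U87 cells. The summed level of the 18 enzymes of cholesterol synthesis was lower in both OE libraries than in both EV libraries, although no single enzyme passed the main test and LSS was higher in both OE libraries. The 18 genes summed to 2285 and 1536 CPM in the EV libraries and 884 and 912 CPM in the OE libraries, so EV replicate 1 was 2.54 times and EV replicate 2 1.71 times the OE mean. For the mevalonate enzymes the ratios were 4.67 and 2.21. For the fatty acid genes, which summed to 2805 and 4722 CPM in EV and 1555 and 1432 CPM in OE, they were 1.88 and 3.16.

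With 2 libraries a group, edgeR called 0 of the 36 members and 0 of 14180 genes at an adjusted p under 0.05 (background 0% higher and 0% lower). At an unadjusted p under 0.05 (edgeR) there were 2643 of the 14180 genes, 1132 higher and 1511 lower in OE. Among them were 18 of the 36 members, and these 18 were all lower in OE. The Wald test of DESeq2 called 10 members lower and none higher (background 2.31% higher and 4.68% lower), namely ACAT2, DHCR7, EBP, FADS2, FDFT1, MVD, MVK, PMVK, SCD and SREBF1. DESeq2 called 24 members lower and 2 higher without EV replicate 1 (background 15.4% and 14.4%), and without EV replicate 2 it called 21 lower and 5 higher (background 27% and 26.4%). These fits leave 1 EV library, so their spread comes from the OE pair alone. Among the members 22 were lower in both OE libraries than in both EV libraries, 3 were higher in both, and 11 overlapped. Of all genes tested 28.2% were lower and 29.9% higher without overlap. The median log2 fold change of the members was -0.97, against -0.057 over all genes.

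Sharing the estimate of the spread across all 10 libraries gave 19 members lower and 1, LSS, higher (background 14.9% lower and 11.3% higher). That fit takes the EV libraries to vary like the other groups, although the EV libraries lay much further apart. Without either EV library the count of members lower was no smaller. The share of all genes called rose as well, in both directions, so that count is not a check of robustness. With the other 9 libraries in 1 fit, 28 members were lower and 3 higher without EV replicate 1 (background 18.4% and 20.4%), and 21 were lower and 7 higher without EV replicate 2 (background 29.1% and 30.4%). Each of these fits assumes that the lone EV library varies like the other groups.

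In the mevalonate list all 7 fold changes were below 0 and 6 genes had groups that did not overlap. Of all genes tested 28.2% were lower and 29.9% higher without overlap. MVD was at 306 and 84.7 CPM in EV and 32.4 and 33.8 CPM in OE (log2 fold change -2.58 ± 0.69 SE, adjusted p = 0.203). MVK was at 80.3 and 39.8 CPM in EV and 13.7 and 17.3 CPM in OE (-1.96 ± 0.45 SE, adjusted p = 0.178). The lower EV library still exceeded the higher OE library for both, and the EV libraries themselves were far apart. PMVK was at 158 and 40.5 CPM in EV and 23.0 and 27.6 CPM in OE (-1.99 ± 0.71 SE, adjusted p = 0.254). ACAT2, whose EV libraries were close, was at 20.3 and 16.9 CPM in EV and 4.47 and 5.25 CPM in OE (-1.95 ± 0.31 SE, adjusted p = 0.145). FDPS was also close between its EV libraries, at 49.1 and 47.2 CPM against 17.0 and 22.1 CPM in OE (-1.31 ± 0.28 SE, adjusted p = 0.171). IDI1 was at 84.0 and 50.3 CPM in EV and 31.5 and 33.2 CPM in OE (-1.07 ± 0.35 SE, adjusted p = 0.240). HMGCS1 was the exception, with EV replicate 1 at the OE level: it was at 22.1 and 60.9 CPM in EV and 23.7 and 23.1 CPM in OE (-0.84 ± 0.53 SE, adjusted p = 0.412).

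From squalene onwards 7 of 11 genes were lower without overlap and LSS was higher, where 28.2% of all genes were lower and 29.9% higher without overlap. FDFT1 was at 276 and 235 CPM in EV and 69.1 and 76.8 CPM in OE (-1.82 ± 0.28 SE, adjusted p = 0.143), so that each EV library held more than 3 times the OE level. EBP, a sterol isomerase, was at 374 and 90.4 CPM in EV and 33.6 and 35.9 CPM in OE (-2.76 ± 0.75 SE, adjusted p = 0.206), with EV replicate 1 at 10.8 times and EV replicate 2 at 2.60 times the OE mean. DHCR7 was at 166 and 217 CPM in EV and 72.8 and 69.9 CPM in OE (-1.44 ± 0.29 SE, adjusted p = 0.164). These 3 genes and SQLE, MSMO1, NSDHL and HSD17B7 were lower in both OE libraries. SQLE was at 84.8 and 126 CPM in EV and 57.9 and 50.2 CPM in OE (-0.97 ± 0.32 SE, adjusted p = 0.237). MSMO1 was at 236 and 134 CPM in EV and 70.0 and 69.8 CPM in OE (-1.42 ± 0.38 SE, adjusted p = 0.203). HSD17B7, a sterol ketoreductase with near-identical copies that make its value uncertain, was at 24.4 and 12.5 CPM in EV and 6.70 and 7.55 CPM in OE (-1.38 ± 0.43 SE, adjusted p = 0.229). LSS was at 238 and 288 CPM in EV and 369 and 368 CPM in OE (0.47 ± 0.28 SE, adjusted p = 0.392).

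SREBF1 was lower in OE and INSIG1 was not. SREBF1 was at 357 and 308 CPM in EV and 129 and 120.2 CPM in OE (-1.43 ± 0.28 SE, adjusted p = 0.162). SCAP was at 179 and 159 CPM in EV and 103 and 106 CPM in OE (-0.71 ± 0.26 SE, adjusted p = 0.262), again without overlap. SREBF2 overlapped, at 154 and 274 CPM in EV and 166 and 175 CPM in OE (-0.34 ± 0.37 SE, adjusted p = 0.611). INSIG1 was at 423 and 414 CPM in EV and 492 and 505 CPM in OE (0.24 ± 0.28 SE, adjusted p = 0.634), slightly above both EV libraries. INSIG2 was at 23.0 and 22.1 CPM in EV and 19.8 and 20.9 CPM in OE (-0.16 ± 0.26 SE, adjusted p = 0.723). The lysosomal exporter NPC1 was at 124 and 409.5 CPM in EV and 578 and 531 CPM in OE (1.05 ± 0.62 SE, adjusted p = 0.389), and its EV libraries differed from each other more than EV replicate 2 differed from OE.

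Of the fatty acid genes SCD, FADS2 and FASN were lower in OE, where 28.2% of all genes were lower and 29.9% higher without overlap. None of them passed the main test. SCD, which makes monounsaturated fatty acids, was at 1723 and 2660.0 CPM in EV and 505 and 474 CPM in OE (-2.17 ± 0.39 SE, adjusted p = 0.156). FADS2 was at 26.4 and 27.1 CPM in EV and 8.77 and 7.55 CPM in OE (-1.73 ± 0.28 SE, adjusted p = 0.145), and FASN at 489 and 796 CPM in EV and 331 and 302 CPM in OE (-1.03 ± 0.37 SE, adjusted p = 0.254). All 3 were lower in both OE libraries than in both EV libraries, and the other 4 genes of the list overlapped. On the efflux side ABCA1 was at 56.2 and 224 CPM in EV and 198 and 168 CPM in OE (0.38 ± 0.69 SE, adjusted p = 0.756), where OE lay between the EV libraries. NR1H3 was at 39.5 and 15.7 CPM in EV and 13.6 and 14.9 CPM in OE (-0.97 ± 0.51 SE, adjusted p = 0.351). The remaining members had log2 fold changes of -1.23 (NSDHL), -1.01 (TM7SF2), -0.056 (CYP51A1) and 0.028 (SC5D) among the sterol enzymes, -0.23 (STARD4), -0.60 (ACLY), -0.34 (FADS1), -0.24 (ELOVL6) and -0.050 (ACACA), and -0.91 (NR1H2) and -0.89 (MYLIP). Of these, NSDHL, NR1H2 and MYLIP were lower in both OE libraries and the others overlapped. Leaving out EV replicate 1 and then EV replicate 2 gave -0.56 and -1.64 for NSDHL, -0.17 and -1.49 for TM7SF2, -0.14 and -1.45 for NR1H3 and 0.43 and 2.18 for NPC1. It gave -1.36 and -3.19 for MVD, -1.36 and -2.35 for MVK, -0.68 and -2.62 for PMVK and -1.38 and -3.41 for EBP.

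The sign of 10 of the 36 fold changes turned with the EV library used. With EV replicate 1 and then EV replicate 2 left out, the log2 fold change was -0.99 and 4.10 for CYP51A1, -0.30 and 1.72 for ABCA1, -1.39 and 0.098 for HMGCS1, and -0.14 and 0.27 for SC5D. For the fatty acid genes it was -0.55 and 0.75 for ACACA, -1.13 and 0.28 for ACLY, -0.67 and 0.12 for FADS1 and -0.43 and 0.013 for ELOVL6. SREBF2 had -0.69 and 0.16 and STARD4 -0.54 and 0.22. The other 26 members kept their sign in both fits, among them all members of the mevalonate list but HMGCS1. For members whose OE libraries lay beyond both EV libraries this follows from the lack of overlap, so it is not a separate check.

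Marker genes also differed between the U87 groups. VIM was at 5099 and 1303 CPM in EV and 627 and 645 CPM in OE. The glioma line list, led by VIM in EV and by CD44 in OE, summed to 6024 and 2188 CPM in EV and 1480.5 and 1463 CPM in OE. VIM, NES, CD44 and GFAP were lower in both OE libraries. OLIG2 (1.77 ± 0.36 SE, adjusted p = 0.164) and NCAM1 (0.62 ± 0.32 SE, adjusted p = 0.340) were higher in both. The neuron and oligodendrocyte markers summed to 7.03 and 10.6 CPM in EV and 18.0 and 19.5 CPM in OE. Among them MBP was at 1.51 and 2.31 CPM in EV and 10.0 and 10.7 CPM in OE, while SYT1 overlapped between the groups. The endothelial list summed to between 9.20 and 13.4 CPM in the U87 libraries, with PECAM1 lower (-1.97 ± 0.50 SE, adjusted p = 0.193) and KDR higher (0.83 ± 0.46 SE, adjusted p = 0.365) in both OE libraries. The epithelial list summed to at most 2.58 CPM in any U87 library. The share of counts from mitochondrial genes was 3.03% and 2.97% in EV and 2.37% and 2.27% in OE. The part of these values in the lipid results was not tested.

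The difference between the knockdown effect and the overexpression effect was tested directly over all 10 libraries. This test takes all groups to share 1 estimate of the spread. The members differed by a median of 0.79 (log2) between the EV libraries, but by 0.12 between the OE libraries and 0.071 between NC replicates 1 and 2. The spread of EV may therefore be understated in the calls below. Of the 36 members 18 had a higher effect in knockdown than in overexpression and none a lower one, where 8.36% of 17312 genes were called higher and 7.33% lower. The calls took in all 7 mevalonate enzymes, 6 of 11 enzymes from squalene onwards (FDFT1, SQLE, MSMO1, HSD17B7, EBP and DHCR7), SREBF1, SCAP and INSIG2, and the fatty acid genes SCD and FASN. None of the 4 tested LXR and efflux genes and neither sterol carrier was called. MVD differed by 2.86 ± 0.58 SE, adjusted p = 0.0131, EBP by 2.83 ± 0.63 SE, adjusted p = 0.0186 and MVK by 2.72 ± 0.37 SE, adjusted p = 0.00246. ACAT2 differed by 2.07 ± 0.20 SE, adjusted p = 0.000521, FDFT1 by 1.97 ± 0.17 SE, adjusted p = 0.000387 and HMGCS1 by 1.93 ± 0.47 SE, adjusted p = 0.0255. All 18 kept their sign without either EV library, but 6 of them moved by over 1.5 times, and with them the order of the members. Without EV replicate 1 SCD (2.46), HMGCS1 (2.44) and MVK (2.09) lay above MVD (1.61), EBP (1.43), HSD17B7 (0.80) and PMVK (0.74). Without EV replicate 2 EBP (3.50), MVD (3.49), MVK (3.12) and PMVK (2.73) lay above SCD (1.85), HSD17B7 (1.78) and HMGCS1 (1.00). ACAT2, FDPS, FDFT1, MSMO1, DHCR7, SREBF1, SCD and MVK were called under all 15 alternatives, while HMGCS1, PMVK and HSD17B7 were not called under 9 of them and SCAP and INSIG2 under 11.

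FADS2, lower under both perturbations, differed by 0.61 ± 0.20 SE, adjusted p = 0.0654 and was not called. It was called higher without either EV library, at 0.60 without EV replicate 1 and 0.58 without EV replicate 2. ABCA1 had a difference of the other sign, -1.21 ± 0.62 SE, adjusted p = 0.210, which was not called in the fit of all 10 libraries. It was called lower without EV replicate 1 (-0.57), without EV replicate 2 (-2.55) and with no filter on low counts (-1.21). CYP51A1 turned with the EV library, from 1.37 without EV replicate 1 to -3.70 without EV replicate 2, and was called both times. Of the 36 members 20 had a fold change above 0 in knockdown and below 0 in overexpression. Another 11 were below 0 in both, 3 above 0 in both and 2 below 0 in knockdown and above 0 in overexpression. Taken singly, 23 were above 0 in knockdown and 31 below 0 in overexpression. The share of all genes in these classes is not given here, so the counts are not read as a result about the members. Without EV replicate 1 the difference was called higher for 27 members and lower for 2 (background 16.1% and 19.4%). Without EV replicate 2 it was called higher for 23 and lower for 8 (background 26.9% and 27.7%). These fits too assume that the lone EV library varies like the other groups. The effects come from different lines and different ways of delivery, and line and direction of the MEOX2 change cannot be told apart.

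**Figure D3:**
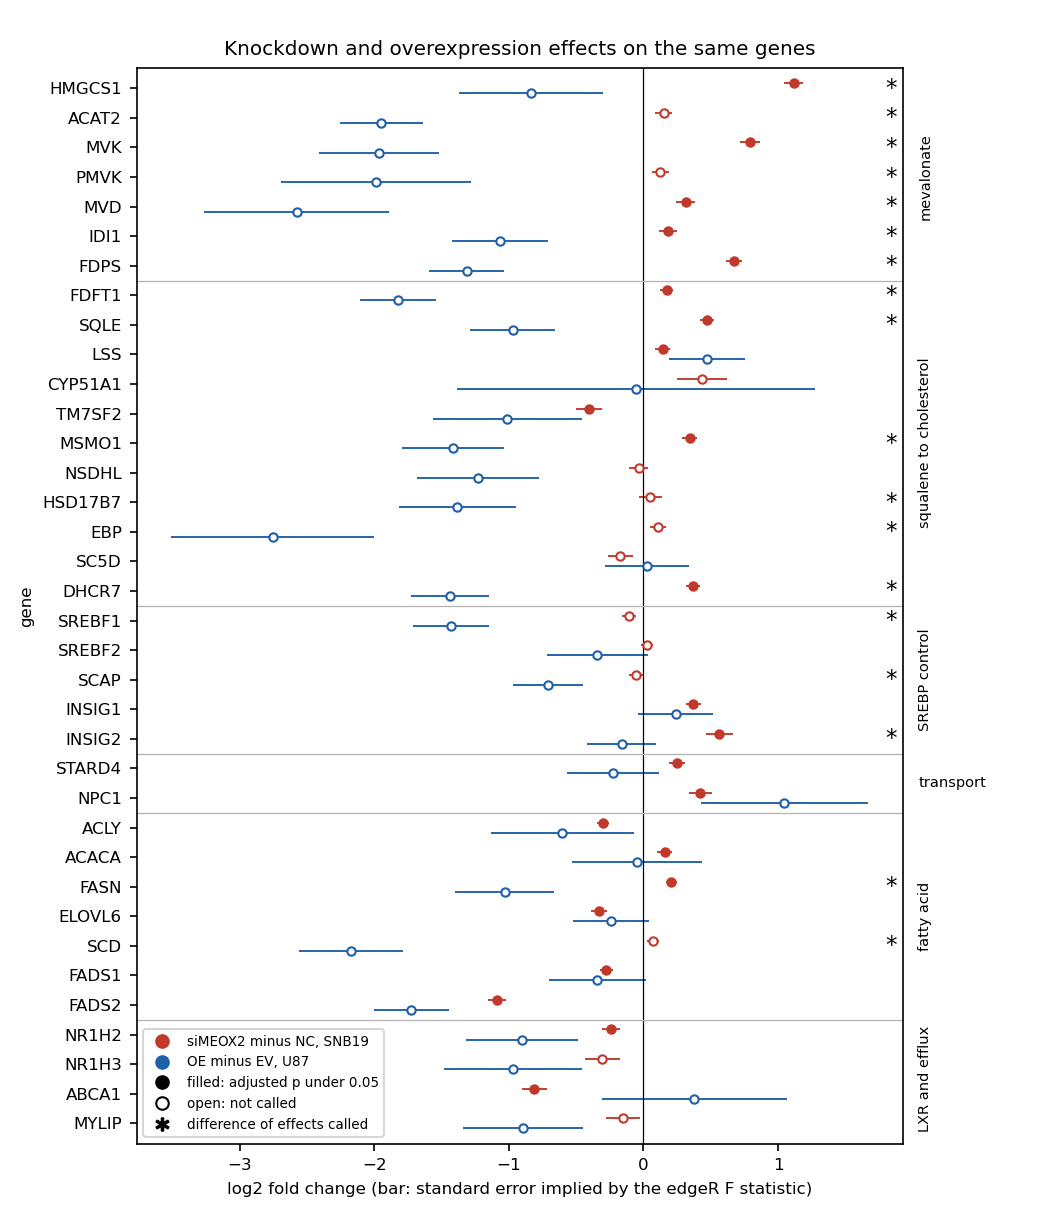
Log2 fold change of each member (row) on knockdown in SNB19 (red) and on overexpression in U87 (blue), with bars of 1 standard error implied by the edgeR F statistic; filled points passed an adjusted p under 0.05 and a star marks a difference between the effects that passed. All 7 mevalonate enzymes carry a star, with red points at or above 0.13 and blue points at or below -0.84, and no blue point is filled.

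The level of the members in the control cells was then compared. Per length of transcript, in deposited FPKM, SCD led in both lines, at 260.2 ± 6.92 in NC and 348 ± 176 in EV (mean ± SD, n = 3 and n = 2). In NC it was followed by FASN (169 ± 5.85), ACLY (126 ± 0.749), SREBF1 (87.7 ± 4.68) and PMVK (66.6 ± 2.70), and each of these steps exceeded the summed SD of its neighbours. EBP, SREBF2, FDFT1 and MSMO1, between 41.2 and 44.8, were not separated from one another by their SD. CYP51A1 was the lowest of the tested members at 1.04 ± 0.208, and its gene shares exon sequence with AC000120.2 and AC000120.3 on the same strand. In EV, INSIG1 came second at 94.4 ± 19.5, but below SCD no neighbours were separated beyond their spread. In OE, INSIG1 came first at 131 ± 1.01, ahead of SCD at 87.3 ± 4.79.

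Between the lines, 8 members were higher in SNB19 NC and 7 in U87 EV by the edgeR test (of 16158 genes, 21.4% were called higher in NC and 20% lower). FADS2 had the largest difference, at 241, 257 and 239 CPM in NC and 26.4 and 27.1 CPM in EV, 9.14-fold higher in SNB19 (log2 fold change 3.19 ± 0.18 SE, adjusted p = 0.000419). MYLIP was at 16.3, 22.1 and 18.7 CPM in NC and 4.36 and 8.14 CPM in EV (1.60 ± 0.33 SE, adjusted p = 0.0161). ACAT2 (1.33 ± 0.18 SE, adjusted p = 0.00392), FASN (1.22 ± 0.28 SE, adjusted p = 0.0216) and SREBF1 (1.00 ± 0.19 SE, adjusted p = 0.0129) were also higher in SNB19, as were SC5D (1.00), FADS1 (0.89) and FDPS (0.76). The groups of these genes did not overlap.

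INSIG1 was the clearest member on the U87 side, at 76.8, 78.0 and 74.2 CPM in NC and 423 and 414 CPM in EV, 5.50-fold higher in U87 (-2.46 ± 0.16 SE, adjusted p = 0.000533). NPC1 (-2.25 ± 0.49 SE, adjusted p = 0.0184), MVD (-2.08 ± 0.52 SE, adjusted p = 0.0277) and NR1H2 (-1.57 ± 0.31 SE, adjusted p = 0.0128) followed, with NSDHL (-1.12), LSS (-0.63) and INSIG2 (-0.61) at smaller differences. With EV replicate 1 and then EV replicate 2 left out, the difference was -2.88 and -1.12 for NPC1, -0.88 and -2.70 for MVD and -0.47 and -1.54 for NSDHL. The other 12 called members moved by less than 1.5 times, with INSIG1 at -2.45 and -2.44 and FADS2 at 3.17 and 3.24. HMGCS1 (0.63 ± 0.43 SE, adjusted p = 0.280), SQLE (0.023 ± 0.22 SE, adjusted p = 0.941), SREBF2 (0.57 ± 0.28 SE, adjusted p = 0.159), SCAP (-0.33 ± 0.16 SE, adjusted p = 0.157), SCD (-0.73 ± 0.26 SE, adjusted p = 0.0711), ABCA1 (-0.96 ± 0.55 SE, adjusted p = 0.208) and NR1H3 (-1.20 ± 0.41 SE, adjusted p = 0.0661) did not pass, and nor did the members not named here. Without EV replicate 1, 13 members were called higher in SNB19 and 19 lower (background 36.3% and 34.5%), and without EV replicate 2, 17 and 17 (background 42.7% and 36.7%). Both of these fits leave 1 EV library, so their spread comes from the NC libraries alone. With 1 NC library left out, 2 members were called higher and 1 lower each time. The share of all genes called in those fits is not given here, so these counts are not read as a result about the members. Cell line, reagent, vector and selection cannot be told apart in this comparison.

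**Figure D4:**
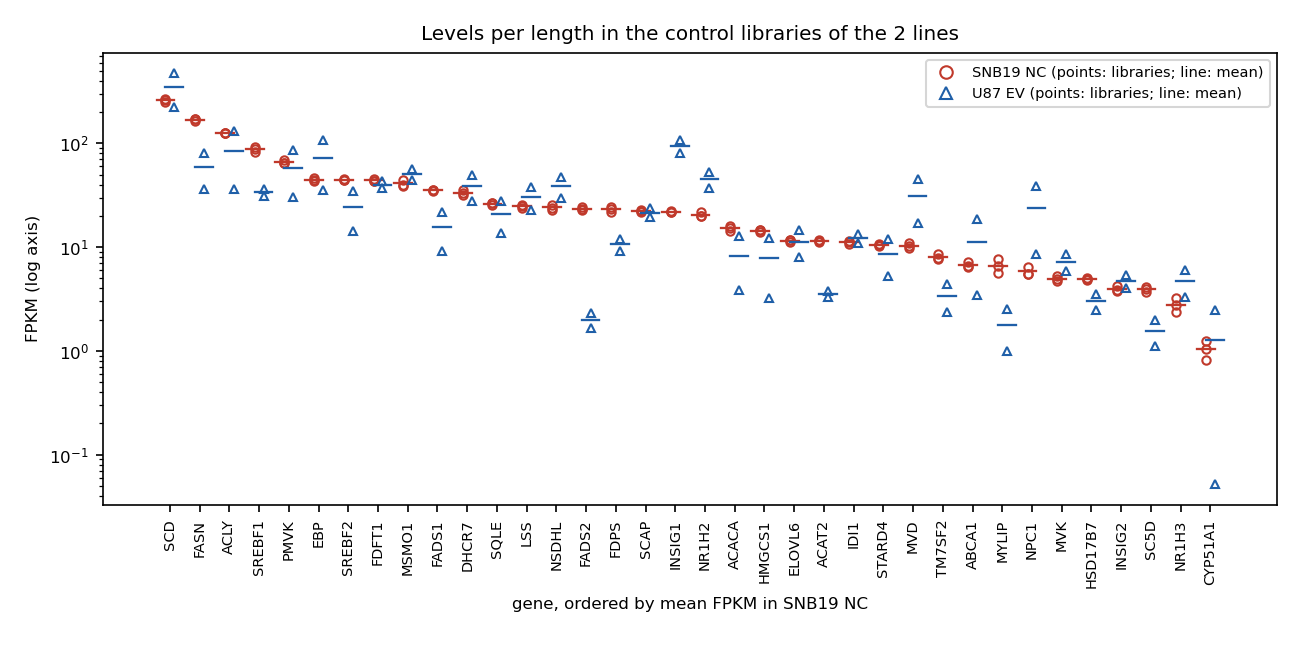
Deposited FPKM on a log axis for the 36 tested members in the SNB19 NC libraries (red circles) and the U87 EV libraries (blue triangles), ordered by the NC mean; short lines are means. FADS2 lies far lower in both EV libraries than in NC and INSIG1 higher, while EV points of genes such as NPC1, ABCA1 and CYP51A1 are far apart.

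Further genes of the same pathways, which are not among the 37, were counted as lists. Of 19 tested genes of sterol handling 6 rose and 5 fell on knockdown, close to the background of 27.4% higher and 28.5% lower over all genes, and 0 of 17 were called on overexpression. ERLIN1, a lipid raft protein of the endoplasmic reticulum that binds the SREBP complex, was at 73.2, 70.6 and 78.4 CPM in NC and 122, 128 and 127 CPM in siMEOX2 (0.78 ± 0.058 SE, adjusted p = 4.65e-10), and its partner ERLIN2 changed by 0.43 ± 0.063 SE, adjusted p = 7.45e-06. Both rose without overlap. OSBPL2, an oxysterol-binding protein, changed by 0.28 ± 0.058 SE, adjusted p = 0.000309 and the caveolae protein CAV1 by -0.59 ± 0.055 SE, adjusted p = 1.58e-08. In U87, TMEM97, a sterol-regulated membrane protein, was at 39.4 and 33.8 CPM in EV and 10.7 and 11.1 CPM in OE (-1.76 ± 0.27 SE, adjusted p = 0.143). ERG28, a scaffold of sterol synthesis, was at 108 and 67.9 CPM in EV and 42.1 and 37.8 CPM in OE (-1.15 ± 0.34 SE, adjusted p = 0.221), and SCARB1, a lipoprotein receptor, at 142 and 102 CPM in EV and 68.8 and 67.2 CPM in OE (-0.86 ± 0.30 SE, adjusted p = 0.247). These 3 were lower in both OE libraries, while SOAT1, which esterifies cholesterol for storage, was higher in both, at 87.6 and 116 CPM in EV and 202 and 202 CPM in OE (0.97 ± 0.29 SE, adjusted p = 0.222).

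Of 22 other tested fatty acid genes 4 rose and 9 fell on knockdown, against that same background of 27.4% and 28.5%. HACD2 (-0.63 ± 0.057 SE, adjusted p = 9.52e-09) and HACD1 (-0.84 ± 0.12 SE, adjusted p = 3.87e-06), dehydratases of chain elongation, ACSL1 (-0.59 ± 0.058 SE, adjusted p = 3.74e-08), which activates fatty acids, and the desaturase SCD5 (-0.54 ± 0.069 SE, adjusted p = 1.15e-06) fell. In U87, where 0 of 22 were called, the elongase ELOVL3 was at 4.01 and 2.17 CPM in EV and 0.166 and 0.288 CPM in OE (-3.70 ± 0.67 SE, adjusted p = 0.159), and the enoyl reductase TECR at 343 and 108 CPM in EV and 54.7 and 58.7 CPM in OE (-2.01 ± 0.62 SE, adjusted p = 0.227). ACSL1 (1.13 ± 0.34 SE, adjusted p = 0.222) and the elongase ELOVL7 (1.50 ± 0.45 SE, adjusted p = 0.223) were higher in both OE libraries. Of 8 other tested genes tied to LXR 1 rose and 4 fell on knockdown, where over all genes 27.4% rose and 28.5% fell. RXRB, a partner receptor of LXR, rose (0.37 ± 0.068 SE, adjusted p = 0.000106), and the partner RXRA (-0.38 ± 0.054 SE, adjusted p = 4.32e-06), the lipid transporter ABCA7 (-0.53 ± 0.062 SE, adjusted p = 3.91e-07) and the coactivator NCOA1 (-0.44 ± 0.086 SE, adjusted p = 0.000178) fell. In U87 0 of 7 were called, with ABCA7 at 18.0 and 19.9 CPM in EV and 6.21 and 6.40 CPM in OE (-1.60 ± 0.28 SE, adjusted p = 0.156). SMPDL3A, an LXR target (0.62 ± 0.28 SE, adjusted p = 0.306), and NCOA1 (0.75 ± 0.44 SE, adjusted p = 0.384) were higher in both OE libraries, and RXRA overlapped between the groups (-0.19 ± 0.26 SE, adjusted p = 0.681).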

How the data were processed

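RNA-seq libraries of SNB19 (NC and siMEOX2, n = 3 each) and U87 (EV and OE, n = 2 each) were made from 1.5 µg RNA with a kit that does not mark strand and read as 150 bp pairs. Per the labels, the authors named HISAT2, HTSeq 0.11.2 and DESeq2 1.26.0 and the build GRCh38 in their processing notes. The deposited table holds raw gene counts and FPKM, and its gene names matched GENCODE release 29 by identifier (34567 of 34567). For genes with over 20 counts, deposited FPKM equalled counts over one length per gene and library total.

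Counts were tested with the quasi-likelihood test of edgeR 4.0.16 (TMM, filterByExpr, R 4.3.3) within each comparison, with Benjamini-Hochberg adjusted p under 0.05 as a call. Standard errors are those implied by the F statistic. DESeq2 1.42.0, another scaling, no filter, all 10 libraries in one fit, a replicate block, leave-one-out fits and the study's fold rule were alternatives. The tests were also run on simulated counts, in which every gene had the same spread and no library stood apart. That run therefore does not show how the tests perform with the EV libraries seen here. CPM are TMM-scaled over 10 libraries. FPKM served only to compare levels between genes.

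The members and the gene lists were chosen with earlier results of these data known. The genes named singly were up to 15 called members by size of change in each perturbation and 8 in the baseline comparison. To these were added 10 genes named whatever their values (HMGCS1, SQLE, INSIG1, SREBF1, SREBF2, SCAP, FASN, SCD, ABCA1, NR1H3), and up to 4 genes of each further list by smallest p. Values in every library are given for these members except NR1H2 and, in NC, ACAT2. For the further lists they are given for some genes only. The overexpression values of the 18 members called in the difference of effects were added after their values were seen. Exons of 17 of the 37 members overlap another gene, 16 of them on the opposite strand, so those reads cannot be told apart. Treatment labels of 3 U87 samples name other MEOX numbers, and their titles were used. The titles of both OE libraries carry the same number in brackets, so the number before the bracket was used. A few genes of the further lists are not reported here.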

Additional observations from a re-analysis of the deposited data

Results flagged for a closer look

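The effects of MEOX2 knockdown in SNB19 and of overexpression in U87 differed for 27 genes (edgeR adjusted p under 0.05). This was the direct test over all 10 libraries, with 1 estimate of the spread for all groups. The genes were 18 of the 36 tested members and, for the rest, genes of the further lists. Of all 17312 genes tested, 8.36% were called higher and 7.33% lower. The values below are the knockdown effect minus the overexpression effect on the log2 scale. Among the mevalonate enzymes they were 2.86 for MVD, 2.72 for MVK, 2.08 for PMVK, 2.07 for ACAT2, 1.96 for FDPS, 1.93 for HMGCS1 and 1.22 for IDI1. From squalene onwards they were 2.83 for EBP, 1.97 for FDFT1, 1.78 for DHCR7, 1.73 for MSMO1, 1.42 for SQLE and 1.40 for HSD17B7. These values move with the EV library, and MVD had 1.61, EBP 1.43 and PMVK 0.74 without EV replicate 1, and HMGCS1 1.00 without EV replicate 2. SREBF1 had 1.29, INSIG2 0.70 and SCAP 0.63, and of the fatty acid genes SCD had 2.22 and FASN 1.22.

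In the further lists, 3 of 19 tested genes of sterol handling were called higher and 1 lower. Of 23 fatty acid genes 2 were higher and 1 lower, and of 8 genes tied to LXR 1 was higher and 1 lower. Against the background of 8.36% higher and 7.33% lower these few calls are not read as a result about the lists. TMEM97 had 1.47, ERG28 1.04, ERLIN1 0.79 and SOAT1 -0.81 among the genes of sterol handling. ELOVL3 had 4.25, TECR 1.84 (0.75 without EV replicate 1 and 2.43 without EV replicate 2) and ACSL1 -1.74 among the fatty acid genes, and ABCA7 had 1.04 and SMPDL3A -0.94 among those tied to LXR. The OE libraries of ELOVL3 lay below 0.3 CPM, so its value rests on few counts.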

How the results depend on the processing

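In this section the totals of genes take in both directions. The share of all genes called in each direction is given above for some of the fits. For the other fits the counts of members are not read as a result about the members. The knockdown counts in SNB19 held within 1.5 times under the other scaling, DESeq2, no filter, the replicate block and each library left out. Under the study's own rule (unadjusted p under 0.05 and absolute log2 fold change above 1) they were 1669 genes, 1 member higher (HMGCS1) and 1 lower (FADS2), and in the fit of all 10 libraries 2725 genes, 4 members higher and 1 lower. For overexpression in U87, where the main counts were 0, the study's rule gave 2160 genes and 16 members lower, DESeq2 991 genes and 10 members lower, no filter 1863 genes and 12 members lower, and the fit of all 10 libraries 4538 genes, 1 member higher and 19 lower. Leaving out 1 U87 library gave 38 to 10616 genes, 0 to 6 members higher and 0 to 29 lower, and these counts were largest without an EV library. With the other 9 libraries in 1 fit, chosen after seeing the data, 7117 genes, 3 members higher and 28 lower were called without EV replicate 1, and 10929 genes, 7 members higher and 21 lower without EV replicate 2. DESeq2, also run after seeing the data, called 4092 genes, 2 members higher and 24 lower without EV replicate 1, and 7967 genes, 5 members higher and 21 lower without EV replicate 2, with the spread taken from the OE pair alone.

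In the comparison of the control lines, leaving out 1 library gave 3244 to 13629 genes, 2 to 17 members higher and 1 to 19 lower. The fit of all 10 libraries gave 9 members higher in SNB19 and 15 lower. The share of all genes called in that fit is not given here, so its counts are not read as a result about the members. For the difference of effects, leaving out 1 library gave 1018 to 10034 genes, 9 to 27 members higher and 0 to 8 lower, and no filter gave 1 member lower, ABCA1. Of the overexpression fold changes (log2), 10 turned in sign when an EV library was left out. Over the edgeR fits that leave out 1 U87 library they ran from -1.39 to 0.098 for HMGCS1, -0.69 to 0.16 for SREBF2, -0.99 to 4.10 for CYP51A1, -0.54 to 0.22 for STARD4, -1.13 to 0.28 for ACLY, -0.55 to 0.75 for ACACA, -0.67 to 0.12 for FADS1, -0.43 to 0.013 for ELOVL6, -0.30 to 1.72 for ABCA1 and -0.14 to 0.27 for SC5D. The values above 0 without EV replicate 2, by DESeq2 and with the other 9 libraries in 1 fit, were 0.070 and 0.11 for HMGCS1, 0.13 and 0.18 for SREBF2, 4.12 and 4.13 for CYP51A1, 0.19 and 0.23 for STARD4, 0.25 and 0.30 for ACLY, 0.72 and 0.77 for ACACA, and 0.091 and 0.13 for FADS1, and in the second fit 0.029 for ELOVL6. The values below 0 without EV replicate 1 were, in the same order, -0.30 and -0.25 for ABCA1 and -0.15 and -0.092 for SC5D. Signs near 0 turned elsewhere too: CYP51A1 had 1.01 with the replicate block, 0.92 with the crossed pairing and 0.22 without OE replicate 1, ACACA 0.080 with the block and with the crossed pairing and 0.041 without OE replicate 2, and SC5D -0.063 without OE replicate 2. NSDHL on knockdown ran from -0.079 to 0.0098, the latter without NC replicate 2. For the libraries EV replicate 1 and EV replicate 2 left out, in that order, the baseline difference was -0.24 and 0.37 for SQLE and -1.64 and 0.39 for ABCA1, and the difference of effects was 0.66 and -0.15 for SREBF2, -0.22 and 1.13 for NR1H3 and 1.37 and -3.70 for CYP51A1, which had -0.25 with the replicate block. The cause was not tested.

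Same-numbered libraries share only a number: the deviations from the group means correlated at 0.043, 0.0026 and 0.059 in SNB19 and at -0.16 in U87, and not every library correlated best with its own number. With the replicate block 468 genes and 4 members lower were called on overexpression, 3787 genes with 3 members higher and 3 lower between the control lines, and 698 genes with 8 members higher for the difference of effects. The crossed pairing of the U87 numbers, added after seeing the data, called 1152 genes and 8 members lower.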
